A study of Mus musculus with 15 samples.

Results

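Messenger RNA of 7 amino acid transporter genes and of the gene for asparagine synthetase was compared in the parental line and in 4 clones of 4T1, a murine breast tumour cell line, which makes 5 populations. The 8 genes were Slc7a11, Slc7a5, Slc3a2, Slc1a4, Slc1a5, Slc38a1, Slc38a2 and Asns, taken by name from 27179 gene identifiers, and all 8 passed the filter on low counts. The parental population was untransfected and is labelled WT. Clones E1, E2, A and M express iRFP670, a near-infrared fluorescent protein, from a plasmid named pNLS-iRFP670. Each was grown from 1 isolated cell, so each is 1 clone, and the founder cells were not measured. All populations were kept in RPMI-1640 with 10% fetal bovine serum and gentamicin. The clones, but not the parental population, were also kept in G418 until the cultures for RNA were set up. RNA was taken after 72 h at about 80% confluency from 3 biological replicates of each population, 15 libraries in all. G418 selection, the plasmid and growth from 1 cell therefore cannot be told apart in any difference between a clone and the parental population.

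These genes serve amino acid supply. Slc7a11 encodes xCT, which brings in cystine in exchange for glutamate, and Slc7a5 encodes LAT1, which exchanges large neutral amino acids such as leucine for glutamine. Both are light chains that reach the plasma membrane bound to the same heavy chain, 4F2hc, the product of Slc3a2. Slc1a4 and Slc1a5 encode the sodium-dependent exchangers ASCT1, for alanine, serine and cysteine, and ASCT2, best known for glutamine in tumour cells. Slc38a1 and Slc38a2 encode SNAT1 and SNAT2, sodium-coupled carriers of small neutral amino acids. Asns makes asparagine from aspartate and glutamine. When amino acids are short, the kinase GCN2 raises translation of the transcription factor ATF4, and ATF4 is known to act at C/EBP-ATF response elements of several of these genes.

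The sequences before the start of transcription are shown for 3 of the genes because the 8 moved together in clone A and because the named element is described for Asns and Slc7a11. RefSeq promoter windows of GRCm38.p6 were found for 5 of the 8: Slc7a11, Slc3a2, Slc1a4, Slc38a2 and Asns. Each line gives the 250 bases before the start on the minus strand, 5′ to 3′, with matches to TGATGNAA (the core of the C/EBP-ATF response element) or TGACNNNGC (the antioxidant response element) on either strand in capitals. The windows are chr6:7693210-7693459 for Asns, chr3:50443614-50443863 for Slc7a11 and chr15:96699729-96699978 for Slc38a2.
Asns: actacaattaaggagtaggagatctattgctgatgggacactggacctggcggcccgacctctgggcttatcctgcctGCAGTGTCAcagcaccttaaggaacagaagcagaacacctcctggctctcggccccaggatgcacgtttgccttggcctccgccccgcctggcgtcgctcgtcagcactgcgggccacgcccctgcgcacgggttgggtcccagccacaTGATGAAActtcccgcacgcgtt
Slc7a11: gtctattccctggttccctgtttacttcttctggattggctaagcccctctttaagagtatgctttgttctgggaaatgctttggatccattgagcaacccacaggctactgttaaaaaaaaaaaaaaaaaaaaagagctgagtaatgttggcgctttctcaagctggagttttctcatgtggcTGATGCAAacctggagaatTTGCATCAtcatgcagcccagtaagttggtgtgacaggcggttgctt
Slc38a2: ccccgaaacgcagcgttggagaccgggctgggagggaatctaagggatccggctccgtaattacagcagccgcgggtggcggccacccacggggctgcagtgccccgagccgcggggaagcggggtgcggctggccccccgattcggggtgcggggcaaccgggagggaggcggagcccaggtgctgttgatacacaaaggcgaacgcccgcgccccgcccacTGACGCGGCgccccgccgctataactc

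Asns held TGATGAAA on its coding strand, 23 bases before the start, and a TGACNNNGC match on the other strand, 172 bases before it. Slc7a11 held TGATGCAA on both strands, at -66 and -47 from the start. Slc38a2 held no TGATGNAA and a single TGACNNNGC match at -27. TGATGNAA lay in the 250 bases of 2 of the 5 genes, against 3.45% of 32851 mouse promoters. It also lay across the start of Slc1a4, at -4 on the other strand, which makes 3 of 5 over the whole window of 300 bases (3.97% of all promoters). The 2 genes with it in the 250 bases are Asns and Slc7a11, for which the element was already described. The shares of all promoters are therefore no independent check on TGATGNAA in these genes. TGACNNNGC lay in 2 of the 5, against 10.2% of promoters. The E box CACGTG lay in 0 of the 5, against 6.02%. The printed matches did not overlap each other. They are descriptions of letters, and binding was not measured. Sequence outside the windows, such as introns, was not searched, so a gene without a match here may hold one elsewhere.

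In GRCm38, the genes lie on 7 chromosomes. Slc7a11 (Entrez 26570) spans chr3:50364936-50499087, Slc7a5 (20539) chr8:121881146-121907686, and Slc3a2 (17254) chr19:8706882-8723369. Slc1a4 (55963) spans chr11:20302180-20332713, Slc1a5 (20514) chr7:16781334-16798274, and Asns (27053) chr6:7675165-7693209. Slc38a1 (105727), at chr15:96571418-96643438, and Slc38a2 (67760), at chr15:96687392-96699728, are neighbours. Slc1a5 is on the plus strand and the others on the minus strand. The promoter table starts Slc7a11 and Slc3a2 inside these RefSeq spans. Other genes annotated across the members shared 0 exon bases with them.

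The libraries held 20143111 to 36831801 counts, of which 61.4% to 72.1% fell on 6 identifiers: mt-Rnr1, mt-Rnr2, Lars2 and 3 that the RefSeq table gave no symbol. Parental replicate 1 and E2 replicate 1 had the highest shares of the most abundant identifier (49.3% and 49.1%, against 36.8% to 44.7% in the other libraries). The 8 genes drew 17061 to 42529 counts per library, and the lowest count of any of them in any library was 335, for Slc1a5. Of 7 epithelial markers, 6 or 7 exceeded a mean of 1 CPM in every population. Of 7 leukocyte and 5 endothelial markers, 0 did, and Cd3e, Itgam and Adgre1 had no count in any library. One of 6 fibroblast markers, Pdgfra, exceeded it, and the summed fibroblast list was 21.0 to 33.8 CPM in A and 3.15 to 12.1 CPM in the others. In A, the fibroblast markers Dcn, Lum, Col1a1, Col3a1 and Thy1 were at 0.

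Clone A had the lowest transcript level of all 8 genes. As a share of the counts outside the 6 most abundant identifiers, the 8 together made up 0.149% to 0.175% in A. They made up 0.324% to 0.333% in the parental libraries, 0.345% to 0.367% in E1, 0.311% to 0.328% in E2 and 0.275% to 0.299% in M. The A libraries thus lay below all others, and the other 4 populations differed far less among themselves. Levels below are CPM, counts per 1000000 counts of the library after TMM scaling. A gene was called when its p from edgeR's quasi-likelihood test, adjusted over all 12712 tested genes by Benjamini-Hochberg, was under 0.05. All 8 genes were called for a difference among the 5 populations, as were 40.9% of all genes. The bulk libraries cannot tell less RNA per cell from fewer cells that express a gene.

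**Figure D1:**
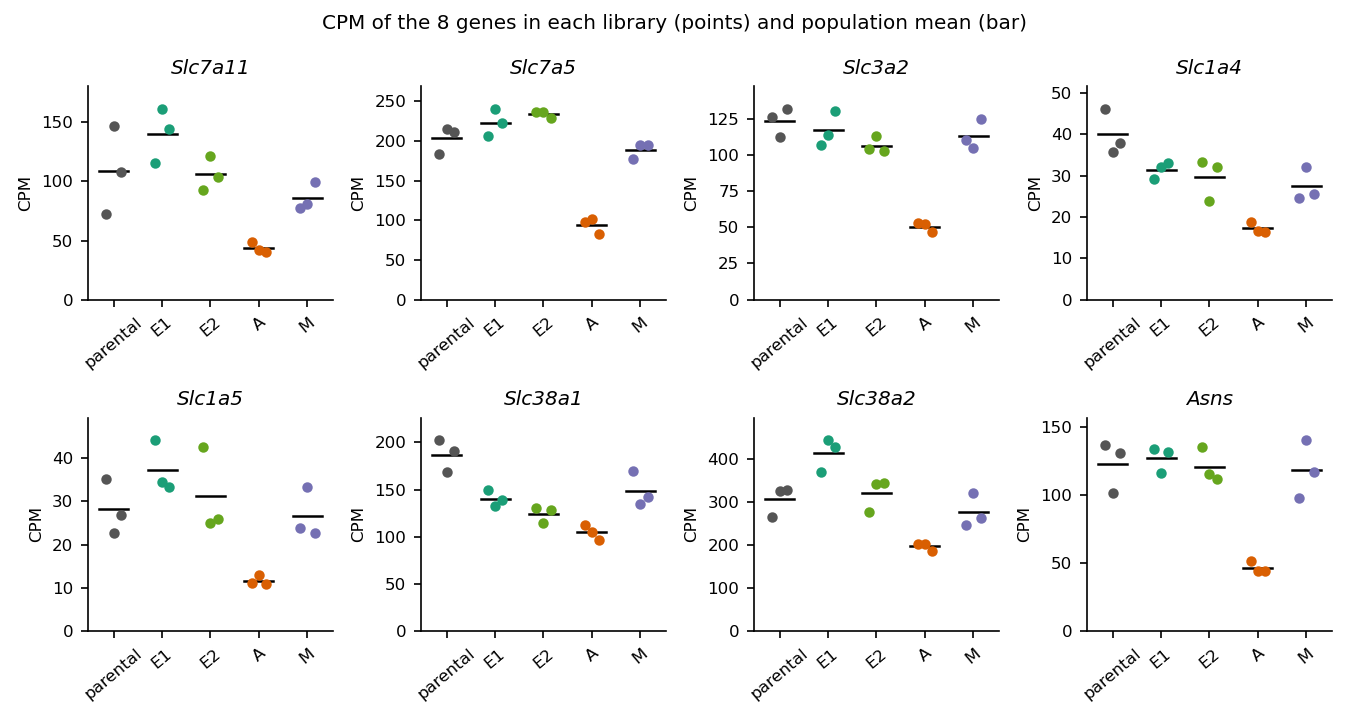
CPM (vertical axis, from 0) of each of the 8 genes in the 5 populations, with 1 panel per gene; points are the 3 libraries of a population and the bar is their mean. The 3 A libraries lie below all 12 other libraries in every panel.

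Against the parental population, all 8 genes fell in A, where 14.9% of all tested genes were called lower. All 8 also fell against E1 (14.6% of genes called lower) and 7 fell against E2 (11% called lower). All 8 were higher in M than in A (9.2% of genes called higher in M). The replicates of A lay below those of the other population for all 8 genes in each of these 4 comparisons. The share of all genes with A wholly lower was 21.1% against the parental population, 23.4% against E1 and 18.9% against E2, and 17% of genes were wholly higher in M than in A. These comparisons share the A libraries and are not independent. The 8 genes were also chosen with earlier results of these data known, so the shares of all genes are no independent check on them. Called lower in A against each of the other 4 populations were 7 of the 8 genes (all but Slc38a1), and 4.46% of all genes. The median log2 fold change of the 8 in A against the parental population was -1.24, and that of all tested genes 0.03. The median was -1.23 against E1 and -1.17 against E2, where the medians of all genes were 0.02 and 0.00. Beside this result, Pdgfra had a mean of 26.4 CPM in A and 7.13 CPM in the parental population, and the other 5 fibroblast markers were at 0 in A.

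**Figure D2:**
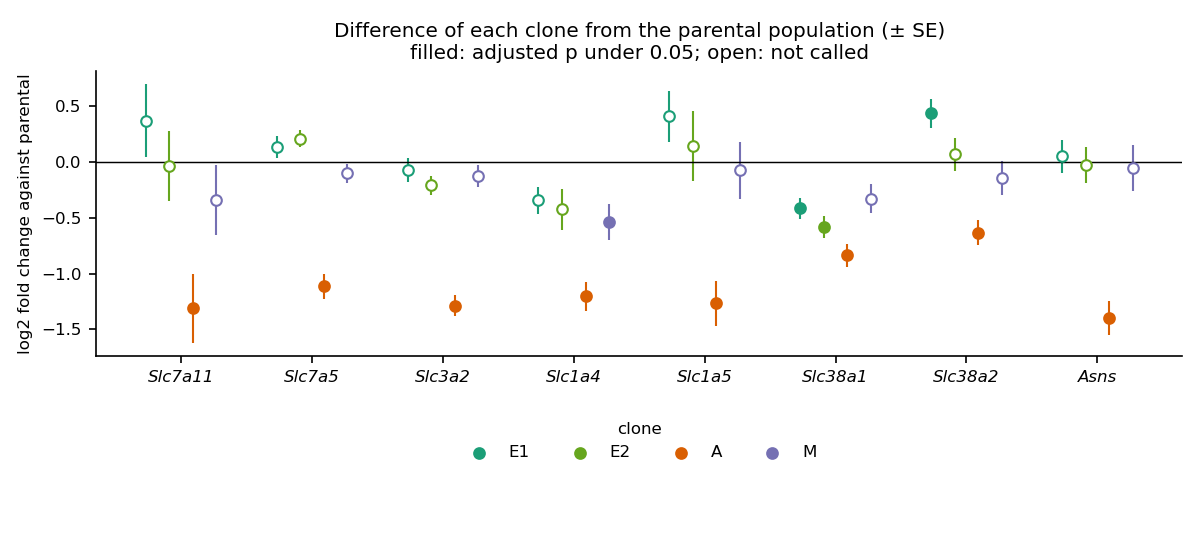
Log2 fold change of each clone against the parental population (vertical axis) for each gene (horizontal axis), with SE as bars; filled points passed an adjusted p of 0.05 and open points did not. All 8 points of A are filled and lie between -0.64 and -1.40, and 4 points of the other 3 clones are filled.

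The light chain Slc7a11 had the widest spread within a population. Its CPM was 72.3, 146 and 108 in parental replicates 1, 2 and 3, then 116, 161 and 144 in E1, 92.8, 121 and 103 in E2, 49.0, 42.3 and 40.1 in A, and 77.2, 81.0 and 99.6 in M. The A values lay below every other library, while those of the parental population spanned most of the range of E1, E2 and M. Relative to their mean, the parental values had an SD of 34.0%, the largest among the 8 genes in the 5 populations. Slc7a11 was 2.48-fold lower in A than in the parental population (log2 fold change -1.31 ± 0.307 (SE, n = 3 each), adjusted p = 1.12e-05) and 3.20-fold lower than in E1 (-1.68 ± 0.166, adjusted p = 4.22e-07). The order of means was E1, parental, E2, M and A, and neighbours above A did not differ past the threshold. M was lower than E1 (-0.71 ± 0.181, adjusted p = 0.0336). That call was lost without E1 replicate 2 (adjusted p = 0.180), E1 replicate 3 (0.115), E2 replicate 3 (0.0549), M replicate 1 (0.131) or M replicate 2 (0.0760). Without parental replicate 2, E1 was called higher than the parental population (0.64, adjusted p = 0.0245 against 0.205 with all libraries). Without parental replicate 1, M was called lower than it (-0.57, adjusted p = 0.0326 against 0.25).

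Slc7a5, the leucine carrier, was nearly level outside A. Its CPM was 183, 215 and 212 in the parental replicates, 206, 240.1 and 222 in E1, 237, 237 and 229 in E2, 97.2, 101 and 83.1 in A, and 177, 194 and 195 in M. Every library outside A had at least 177 CPM and every A library at most 101 CPM. The level in A was 2.17-fold lower than the parental one (log2 fold change -1.11 ± 0.114, adjusted p = 4.52e-07) and 2.49-fold lower than that of E2, the highest population (-1.32 ± 0.0878, adjusted p = 5.84e-08). E1, E2 and M differed from the parental population by 0.13 ± 0.0989, 0.20 ± 0.0762 and -0.11 ± 0.0871 on the log2 scale, and none of these passed the test.

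Slc3a2, the heavy chain that both light chains need, showed the same division. Its CPM was 126, 112 and 132 in the parental replicates, 107, 113 and 130.3 in E1, 104, 113 and 102 in E2, 52.7, 52.5 and 46.4 in A, and 110.1, 105 and 124 in M. The A libraries did not reach 53 CPM and no other library was under 102 CPM. Slc3a2 was 2.44-fold lower in A than in the parental population (-1.29 ± 0.0908, adjusted p = 6.57e-08) and 2.24-fold higher in M than in A (1.16 ± 0.0944, adjusted p = 1.26e-06). The means in the parental population, E1, M and E2, in that order, did not differ past the threshold in any pair.

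The exchanger gene Slc1a4 was highest in the parental population. Its CPM was 46.2, 35.8 and 38.0 in the parental replicates, 29.2, 32.0 and 33.1 in E1, 33.3, 24.0 and 32.1 in E2, 18.8, 16.6 and 16.5 in A, and 24.6, 32.0 and 25.7 in M. Every clone library was below every parental library, and the A libraries were below all others. Slc1a4 was 2.31-fold lower in A than in the parental population (-1.21 ± 0.127, adjusted p = 3.78e-06). A was also lower than E1 (-0.86 ± 0.0826) and E2 (-0.78 ± 0.161) on the log2 scale, and M was higher than A (0.66 ± 0.133), all called. M was also lower than the parental population (-0.54 ± 0.161, adjusted p = 0.0268), the 1 of the 8 genes called there (6.28% of genes were called lower in M). This call was lost in a fit of those 2 populations alone (adjusted p = 0.0635) and without parental replicate 1 (0.123), parental replicate 3 (0.0515), M replicate 1 (0.0953) or M replicate 3 (0.108). E1 and E2 differed from the parental population by -0.35 ± 0.123 and -0.43 ± 0.185 and did not pass the test (adjusted p = 0.165 and 0.0724). E2 passed it in DESeq2 (-0.44, adjusted p = 0.0464).

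Slc1a5, the glutamine exchanger, had the lowest counts of the 8. Its CPM was 35.2, 22.6 and 26.7 in the parental replicates, 44.1, 34.5 and 33.3 in E1, 42.6, 25.0 and 25.9 in E2, 11.1, 13.0 and 10.9 in A, and 23.9, 33.3 and 22.7 in M. The libraries of the 4 populations other than A overlapped, and replicate 1 of the parental population, E1 and E2 was the highest of its own 3. Slc1a5 was 2.41-fold lower in A than in the parental population (-1.27 ± 0.203, adjusted p = 4.29e-05) and 3.19-fold lower than in E1 (-1.67 ± 0.149, adjusted p = 1.04e-06). E1 exceeded the parental population by 0.41 ± 0.225, which was not called (adjusted p = 0.195) but was without parental replicate 1 and E2 replicate 1 together (0.60, adjusted p = 0.0361). The other differences outside A did not pass the test.

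Slc38a1 was lower than parental in 3 clones. Its CPM was 202, 168 and 191 in the parental replicates, 149, 133 and 139 in E1, 131, 114 and 129 in E2, 113, 105 and 96.3 in A, and 169.9, 134 and 142 in M. The values of E1, E2 and A lay below the parental ones without overlap, and only M reached them. The fall was 1.79-fold in A (-0.84 ± 0.102, adjusted p = 3.60e-05), 1.5-fold in E2 (-0.59 ± 0.0988, adjusted p = 0.00338) and 1.33-fold in E1 (-0.42 ± 0.0917, adjusted p = 0.0373). In E2, Slc38a1 was the 1 gene of the 8 called lower (8.8% of genes were called lower in E2), and in E1 it was likewise the 1 gene called lower (7.35% called lower). The E1 call was lost with no filter on low counts (adjusted p = 0.0636) and without parental replicate 1 (0.107), parental replicate 3 (0.107), E1 replicate 2 (0.148), E1 replicate 3 (0.117) or A replicate 2 (0.0511). A and E2 did not differ past the threshold (-0.25 ± 0.0907, adjusted p = 0.207), although their replicates did not overlap. A was lower than E1 (-0.42 ± 0.0829, adjusted p = 0.0206), a call lost without E1 replicate 1 (0.0988), E1 replicate 3 (0.0502), A replicate 2 (0.0542) or A replicate 3 (0.101). M was higher than A (0.50 ± 0.122, adjusted p = 0.0104), a call lost without A replicate 3 (0.0663) or M replicate 1 (0.0657). M differed from the parental population by -0.33 ± 0.128 (adjusted p = 0.103), which DESeq2 called (adjusted p = 0.0492).

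Its neighbour Slc38a2 had the most counts of the 8 and, against the parental population, the smallest fall in A. Its CPM was 265, 327 and 329 in the parental replicates, 371, 444 and 428 in E1, 277, 343 and 346 in E2, 202, 203 and 187 in A, and 247, 322 and 264 in M. All E1 libraries were above all others, and all A libraries were below all others. Slc38a2 was 1.55-fold lower in A than in the parental population (-0.64 ± 0.110, adjusted p = 0.00135) and 2.10-fold lower than in E1 (-1.07 ± 0.0882, adjusted p = 2.98e-06). E1 exceeded the parental population 1.35-fold (0.43 ± 0.130, adjusted p = 0.0415), the 1 gene of the 8 called higher there (7.77% of genes were called higher in E1). That call was near its threshold and was lost in 14 of 23 alternative settings. Among these were RLE size factors (adjusted p = 0.0528), no filter (0.0515), a fit of those 2 populations alone (0.0510), and leaving out any 1 parental replicate (0.0578 to 0.196). Leaving out E1 replicate 2 (0.156), E1 replicate 3 (0.129), E2 replicate 3 (0.0648), any 1 A replicate (0.0530 to 0.0542) or M replicate 3 (0.0518) also lost it. M was lower than E1 (-0.58 ± 0.139, adjusted p = 0.0210), so 2 of the 8 genes, with Slc7a11, were called lower there (1.46% of genes were). The Slc38a2 call was lost without E1 replicate 2 (0.117), E1 replicate 3 (0.0930), M replicate 1 (0.109) or M replicate 3 (0.117). M was higher than A (0.49 ± 0.120, adjusted p = 0.0179), a call lost without A replicate 3 (0.0820) or M replicate 2 (0.105).

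Asns, the enzyme, had the largest fall in A against the parental population of the 8. Its CPM was 137, 101 and 131 in the parental replicates, 134, 116 and 132 in E1, 135, 115 and 112 in E2, 51.4, 44.6 and 44.1 in A, and 98.0, 140.4 and 117 in M. No library outside A was under 97 CPM, and no A library exceeded 52 CPM. Asns in A stood at 37.8% of the parental mean, a 2.64-fold fall (-1.40 ± 0.153, adjusted p = 1.25e-07). It was 2.73-fold lower than in E1, 2.59-fold lower than in E2 and 2.54-fold lower than in M. The other 3 clones differed from the parental population by 0.05 ± 0.150 (E1), -0.03 ± 0.160 (E2) and -0.06 ± 0.202 (M) on the log2 scale, none of which passed the test.

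In edgeR's quasi-likelihood test 0 of the 8 were called between E1 and E2 (0.236% of all genes were called), 2 were lower in E2 at an unadjusted p under 0.05, and DESeq2 called 0. The E2 libraries lay wholly below those of E1 for Slc38a1 and Slc38a2, as they did for 7.76% of all genes. Between M and E2, 0 of the 8 were called (3.5% of all genes), 1 was lower in M at an unadjusted p under 0.05, and DESeq2 called 0. The median log2 fold change of the 8 against the parental population was 0.09 in E1, -0.03 in E2 and -0.13 in M, beside -0.01, 0.01 and -0.01 for all tested genes. The share of all genes at an unadjusted p under 0.05 was not counted. The spread of the replicates limits what these comparisons can show.

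Dividing CPM by exon length made the levels of the genes comparable. In the parental population, Slc38a2 had 65.9 ± 7.82 (SD, n = 3) CPM per kilobase, Asns 61.6 ± 9.56 and Slc7a5 57.8 ± 5.04. Slc3a2 followed with 42 ± 3.37 and Slc38a1 with 22.6 ± 2.07, and Slc7a11, Slc1a5 and Slc1a4 had 11.8 ± 4.02, 10.2 ± 2.33 and 10.2 ± 1.39. The SD ranges of the first 3 overlapped, as did those of the last 3. In A, Slc38a2 had 42.4 ± 1.92 CPM per kilobase, above Slc7a5 (26.7 ± 2.70) and Asns (23.3 ± 2.06), whose SD ranges still overlapped, and Slc3a2 had 17.2 ± 1.22. The order depends on the exon length used. With the exons of all annotated transcripts merged, Slc38a2 in the parental population came to 34.7, Asns to 45.1 and Slc7a5 to 54.8 CPM per kilobase, and in A they came to 22.4, 17.1 and 25.3, so that Slc38a2 no longer led in either population.

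**Figure D3:**
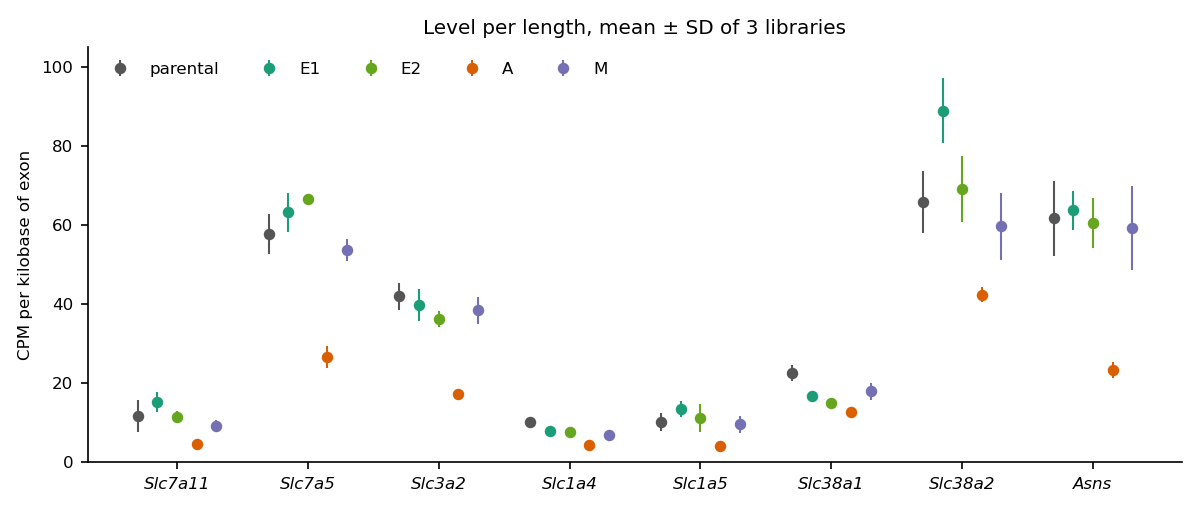
CPM per kilobase of exon (vertical axis, from 0) of the 8 genes (horizontal axis) in the 5 populations; points are means and bars SD over 3 libraries. Slc38a2, Asns and Slc7a5 lie at 57.8 to 65.9 in the parental population, and in A Slc38a2 (42.4) lies above Slc7a5 (26.7) and Asns (23.3), with these exon lengths.

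Ratios of 2 genes within a library do not depend on the total count of that library. The 5 ratios were chosen after the values were seen, and 50 comparisons were made, so p-values are exact permutation tests, two-sided, whose smallest possible value with 3 against 3 libraries is 0.1. No ratio could therefore pass 0.05. Slc38a2 to Slc38a1, per length, was 2.95 ± 0.571 (SD, n = 3) in the parental population, 5.29 ± 0.784 in E1 and 4.63 ± 0.796 in E2. The parental libraries (2.33 to 3.46) lay below those of E1 (4.43 to 5.95) and E2 (3.77 to 5.34), with exact p = 0.1 and adjusted p = 0.208 for each. In A (3.36 ± 0.155) and M (3.39 ± 0.842) the ratio overlapped the parental one. Slc1a5 to Slc1a4 was 0.993 ± 0.0943 in the parental population, 1.70 ± 0.386 in E1, 1.48 ± 0.336 in E2 and 1.37 ± 0.114 in M, all 3 without overlap (exact p = 0.1, adjusted p = 0.208). In A, where both genes fell, that ratio was 0.963 ± 0.137 (exact p = 0.8). Asns to Slc38a2 was 0.953 ± 0.242 in the parental population and 0.550 ± 0.0412 in A, without overlap (exact p = 0.1, adjusted p = 0.208).

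The light chain to heavy chain ratios of A overlapped those of the parental population. Slc7a11 to Slc3a2 was 0.276 ± 0.0195 in A and 0.286 ± 0.118 in the parental population (exact p = 0.9). Slc7a5 to Slc3a2 was 1.55 ± 0.0577 and 1.39 ± 0.197 (exact p = 0.3), and reached 1.84 ± 0.0814 in E2, above all parental libraries (exact p = 0.1, adjusted p = 0.208).

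**Figure D4:**
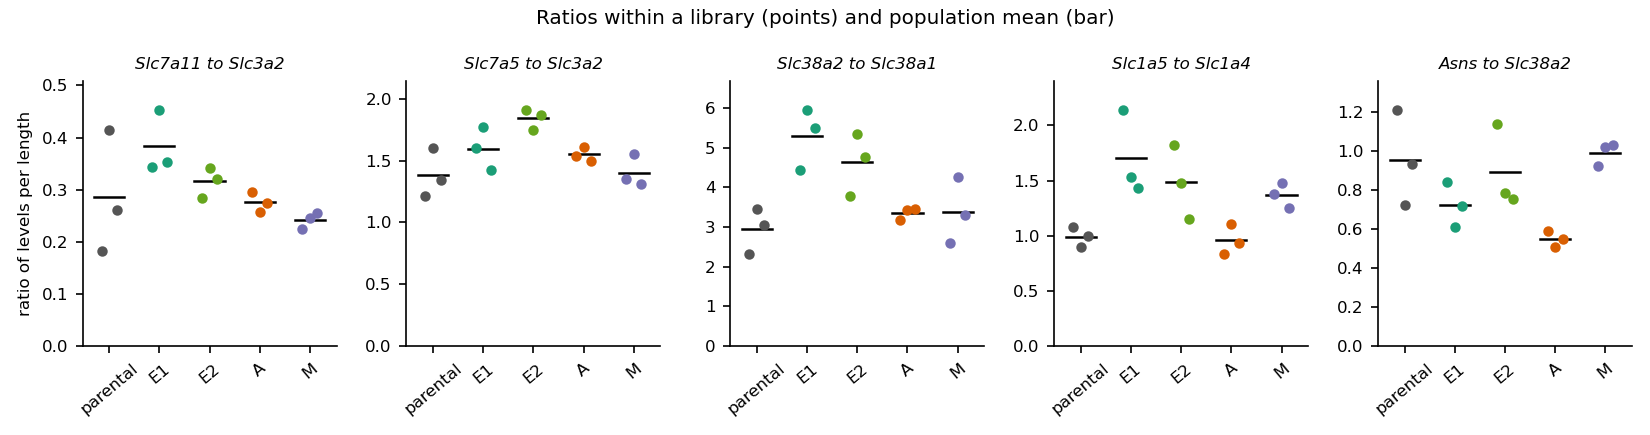
Ratio of the levels per length of 2 genes within a library (vertical axes, from 0) for 5 pairs of genes in the 5 populations; points are the 3 libraries and the bar is their mean. Slc38a2 to Slc38a1 is highest in E1 and E2 (means 5.29 and 4.63), and Asns to Slc38a2 is lowest in A (0.550).

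The genes whose pattern over the 15 libraries was most like that of each member were found from the root mean square difference of centred log2 CPM among 7573 genes. This is a description, with the libraries and their depth shared by all genes. For Slc3a2 they were the aminoacyl-tRNA synthetase genes Nars (0.141) and Lars (0.145). For Slc1a4 they were the RNA methyltransferase gene Nsun2 (0.135) and the synthetase gene Iars (0.142). For Slc38a2 they were Psat1 (0.116), an enzyme of serine synthesis, and Ifrd1 (0.124). Nearest to Slc1a5 were Zfp598 (0.172) and Cad (0.175), the latter the start of pyrimidine synthesis. For Asns they were Ddx21 (0.147) and Utp20 (0.174), for Slc7a5 Utp20 (0.148) and Btaf1 (0.169), and for Slc7a11 Rcc1 (0.244) and Ddx39a (0.247). Slc38a1 was nearest to Fam118b (0.123) and Uspl1 (0.128). Among the members themselves, Slc7a5 and Slc3a2 (0.186) and Asns and Slc3a2 (0.191) were close. The chromosomal neighbours Slc38a1 and Slc38a2 differed by 0.382, and the pair farthest apart, Slc7a11 and Slc38a1, by 0.543.

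Other genes of amino acid handling were counted by list, read against 14.9% of all tested genes called lower and 15.1% called higher in A. These lists, too, were chosen with earlier results of these data known. Of 16 genes of amino acid sensing by GCN2 and ATF4, 13 fell in A and 0 rose (median log2 fold change -1.10). Atf3, a transcription factor induced by stress, went from 20.1 ± 2.24 CPM in the parental population to 2.03 ± 0.495 in A (-3.26 ± 0.231, adjusted p = 1.36e-09). Ppp1r15a, which helps restore translation after stress, fell from 27.8 ± 5.08 to 8.17 ± 3.22 CPM (-1.76 ± 0.411, adjusted p = 3.24e-05), and the secreted factor Stc2 from 14.6 ± 0.938 to 4.74 ± 0.791 CPM (-1.61). Atf4 itself, picked out after its value was seen, fell from 84.8 to 45.5 CPM (-0.90 ± 0.138, adjusted p = 0.000134). The lipoprotein receptor gene Vldlr was lower in all 4 clones, from 44.1 ± 9.32 CPM to between 3.16 ± 1.29 (M) and 12.2 ± 0.958 (A). In E1, 2 of the 16 fell and 1 rose, in E2 3 fell and 1 rose, and in M 6 fell and 0 rose. Of all genes, 7.35%, 8.8% and 6.28% were called lower in these clones, and 7.77%, 9.14% and 7.87% were called higher. The lower counts rested on single libraries. For E1 the count was 1 without any 1 parental or A replicate, E1 replicate 2 or E2 replicate 2. For E2 it was 1 without parental replicate 1 or E2 replicate 3, and for M it was 2 without M replicate 3. The 1 higher call was lost in E1 without parental replicate 2 or 3 or any 1 E1 replicate, and in E2 when replicate 1 or replicate 3 of either population was left out. In M, 1 gene was called higher without E2 replicate 3 or A replicate 3, and in DESeq2. In M against A, 10 were higher and 1 lower, beside 9.2% of all genes called higher and 8.55% called lower.

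Of 20 cytosolic aminoacyl-tRNA synthetase genes, 15 fell in A and 0 rose (median -0.82). The synthetase genes Rars (105 ± 21.0 to 36.3 ± 2.85 CPM, -1.52), Tars (177 ± 22.8 to 69.1 ± 5.96 CPM, -1.35), Aars (-1.33) and Eprs (-1.30) fell most. In E1 2 fell and 3 rose, in E2 6 fell and 2 rose, and in M 7 fell and 2 rose, beside 7.35%, 8.8% and 6.28% of all genes called lower and 7.77%, 9.14% and 7.87% called higher. The lower counts of these 3 clones also rested on single libraries. For E1 the count was 0 without parental replicate 1, E1 replicate 2 or E1 replicate 3 and 1 without parental replicate 3. For E2 it was 1 without parental replicate 1, 3 without parental replicate 3 and 2 without E2 replicate 2 or 3, and 1 in a fit of those 2 populations alone. For M it was 2 without parental replicate 1 and 4 without M replicate 3. Of 19 enzyme genes around aspartate, glutamate, glutamine, alanine and proline, 17 were tested, 9 of which fell in A and 1 rose (median -0.65). The aspartate aminotransferase gene Got1 fell from 27.8 ± 6.05 to 7.33 ± 0.508 CPM (-1.91 ± 0.192, adjusted p = 2.31e-08). The aminotransferase gene Gpt2 (-1.38), the proline synthesis gene Aldh18a1 (-1.20) and Got2, the mitochondrial partner of Got1 (-0.73), also fell. Oat, named after its value was seen, was the gene that rose (0.69).

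Among 29 other plasma membrane amino acid transporters, 10 were tested, and 3 fell and 1 rose in A (median -0.38). Slc7a6, another light chain that binds 4F2hc, had 43.4 ± 1.21 CPM in the parental population, 28.0 ± 1.87 in E1, 24.6 ± 3.08 in E2, 21.7 ± 4.88 in M and 13.1 ± 2.58 in A. It fell in all 4 clones (-0.63, -0.82, -1.0 and -1.72 in that order), the E1 call being lost without E1 replicate 1 (adjusted p = 0.0574). The cationic amino acid transporter gene Slc7a1 fell from 172 ± 41.4 to 69.7 ± 10.1 CPM in A (-1.30, adjusted p = 2.04e-06), and the glycine transporter gene Slc6a9 fell too (-1.07). The gene that rose, Slc43a2 (1.79), was named after its value was seen. Slc43a2 did not meet the rule (at least 5 CPM and no overlap of replicates) by which the other genes were named. No gene of this list was called higher without parental replicate 1, A replicate 1 or A replicate 3.

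The remaining 3 lists were compared with the parental population unless another is named. They are read against the same 14.9% of all genes called lower and 15.1% called higher in A. Of 13 lysosomal and intracellular transporters, 12 were tested, and 2 fell (Slc38a7, -1.19, and Slc36a1, -0.57) and 1 rose in A (median -0.10). The Slc36a1 call was lost without A replicate 1 (adjusted p = 0.0669). The gene that rose, Slc38a6 (1.19), was named after its value was seen and did not meet that rule on level and overlap either. No gene of the list was called higher without parental replicate 1, parental replicate 3 or A replicate 1. Slc25a12, a mitochondrial aspartate and glutamate carrier, fell in E2 (-0.79), a call lost without parental replicate 2 (adjusted p = 0.0670), parental replicate 3 (0.0516) or E2 replicate 2 (0.0821). Of 12 glutathione genes, downstream of the cystine that xCT imports, 10 were tested, and 3 fell and 1 rose in A (median -0.02). Gclc and Gclm, the subunits of the first enzyme of glutathione synthesis, fell (-0.97 and -0.92), and Cd44 rose (0.78). Gss also fell (-1.60) and was named after its value was seen. Gss did not meet the rule (at least 5 CPM and no overlap of replicates) by which the other genes were named. Cth, which makes cysteine from cystathionine, had 51.3 ± 7.92 CPM in the parental population and fell to 24.5 ± 7.18 in E1 (-1.06), 23.1 ± 2.86 in E2 (-1.15) and 31.8 ± 2.64 in M (-0.69), the M call being lost without parental replicate 3 (adjusted p = 0.0736). In A it had 37.1 ± 5.66 CPM, which was not called (adjusted p = 0.0527). In A against E1, 4 of the 10 tested glutathione genes were called lower and 4 higher, beside 14.6% and 15% of all genes. In A against E2, 4 were likewise called lower and 4 higher, beside 11% and 11.4% of all genes. Of 19 genes of amino acid sensing by mTORC1, 18 were tested, and 2 fell (Flcn, -0.84, and Rraga, -0.58) and 1 rose (Castor2, 0.94) in A (median 0.08). The Castor2 call was lost without parental replicate 1 (adjusted p = 0.127), parental replicate 2 (0.0629) or A replicate 3 (0.278). Lamtor1, part of the lysosomal anchor of mTORC1, rose in M (0.74), a call lost without parental replicate 1 (adjusted p = 0.0770).

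**Figure D5:**
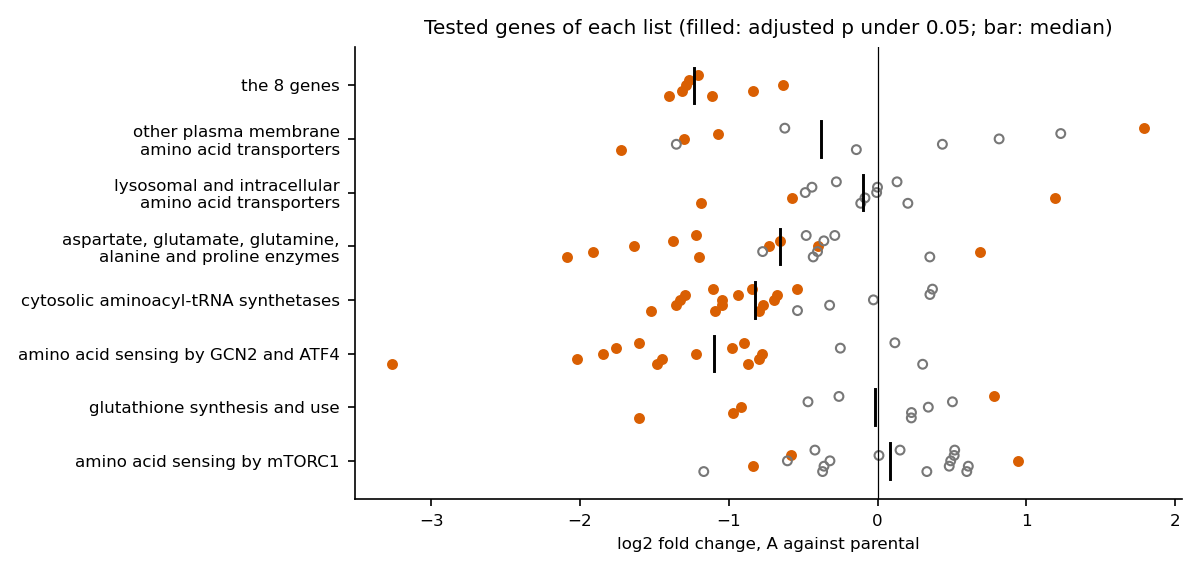
Log2 fold change of A against the parental population (horizontal axis) for the tested genes of each list (rows); each point is a gene, filled where the adjusted p was under 0.05, and the bar is the median of the list. The medians are -1.24 for the 8 genes, -1.10 for the GCN2 and ATF4 list and 0.08 for the mTORC1 list.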

How the data were processed

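RNA sequencing counts of 15 libraries were used. Per the labels, RNA went into a directional library preparation on NovaSeq. The counts per gene were made and deposited by the authors; the submitters' processing notes name HISAT2, featureCounts and DESeq2 with GRCm38 and mm10. The strand setting of the counting is not given in the sources used here. The deposited normalized tables were not used here. The 8 genes and all gene lists were chosen with earlier results of these data known.

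Tests were run in edgeR 4.0.16 (with limma 3.58.1, under R 4.3.3). Low counts were removed by filterByExpr, at a minimum of 10 counts and a total of 15, which left 12712 genes. The TMM factors were 0.847 to 1.11, and a robust quasi-likelihood fit had the population as its only term. P-values were adjusted by Benjamini-Hochberg within each comparison over all tested genes. Fold changes used a prior count of 2. SE came from the SD of log2 CPM. Nothing states that replicates were separate cultures, so p-values measure only the spread between these samples, which may be technical. Per-length levels used merged exons of RefSeq-linked GENCODE transcripts. RefSeq named 25275 of 27179 identifiers. In each list, up to 4 called genes with at least 5 CPM, no overlap of replicates and the largest change were named. The scripts were tested on simulated data. Alternatives were RLE size factors, 2 other filters, DESeq2 1.42.0, a replicate block, totals without the 6 most abundant identifiers, pairs of populations alone and each library left out. Leaving out the 2 libraries with the highest share of the most abundant identifier was chosen after seeing the data.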

Additional observations from a re-analysis of the deposited data

How the results depend on the processing

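Across 23 alternative settings, A against the parental population kept a count of 8 of the 8 genes, A against E2 a count of 7, and the counts of 0 for E2 against E1 and for M against E2 did not move. Of 851 recomputed values of the 37 called differences of the 8 genes, 807 stayed called and 44 lost the call, 8 of them in comparisons with A, and 0 changed sign. Counts of the 8 genes called did move elsewhere. For E1 against the parental population (2) the count was 1 with RLE size factors, 0 with no filter, 1 in the pair alone and 1 without parental replicate 1 and E2 replicate 1, where the top identifier takes most. For E2 against it (1) DESeq2 gave 2. For M against it (1) DESeq2 gave 2 and the pair alone 0. Leaving out 1 library gave 0 to 2 genes for E1 and 0 to 1 for M against the parental population, 0 to 2 for M against E1, 7 to 8 for A against E1, 6 to 8 for M against A, and 6 to 7 for genes lower in A than in each other population (6 without A replicate 3 or M replicate 2).

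Counts over all genes moved most between clones. E2 against E1 had 30 calls, 128 with no filter, 126 in DESeq2 and 64 without those 2 libraries (9 to 46 leaving out 1 library). M against E1 had 495, 817 with no filter (210 to 824). M against E2 had 445, 790 with no filter, 743 in DESeq2 and 174 in the pair alone (208 to 723). E2 against the parental population had 2281 and 1440 without those 2 libraries. Leaving out 1 library gave 1084 to 2084 for E1 (1922) and 1145 to 1975 for M (1798) against the parental population, 1479 to 2411 for M against A (2256), and 372 to 598 genes lower in A than in each other population (567; 372 without A replicate 3). With the replicate block, M against the parental population had 2 of the 8 genes (Slc38a1 was added, -0.33, adjusted p = 0.0462), E2 against E1 68 genes and M against E2 699, and the block changed no other count of the 8. Same-numbered libraries of different populations had deviations correlated at -0.0579 to 0.213 (mean 0.0561), over 0.1 in 4 of 30 pairs. Differently numbered libraries had -0.179 to 0.063 (mean -0.028), over 0.1 in 0 of 60 pairs. The rule used, based on pairs over 0.1, did not count this as pairing, although 14 of 15 libraries correlated best with their own number. A shared effect of the replicate number was not tested, and the main fit holds no term for it.

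Signs turned only in differences near 0 that were not called. Leaving out 1 library, the log2 fold changes ran as follows. Asns ran from -0.074 to 0.12 (E1 against parental), -0.15 to 0.038 (E2 against parental), -0.20 to 0.065 (M against parental), -0.23 to 0.016 (M against E1) and -0.15 to 0.092 (M against E2). Slc1a5 ran from -0.15 to 0.31 (E2 against parental), -0.27 to 0.10 (M against parental) and -0.39 to 0.070 (M against E2). Slc1a4 ran from -0.17 to 0.052 (E2 against E1), Slc38a1 from -0.020 to 0.17 and Slc3a2 from -0.12 to 0.038 (both M against E1), and Slc38a2 from -0.042 to 0.17 and Slc7a11 from -0.28 to 0.23 (both E2 against parental). Without those 2 libraries, Asns was 0.075 (M against E2) and 0.031 (M against parental), and Slc1a5 0.085 and 0.12. The cause was not tested. The lowest Slc1a5 count, 335, was in A replicate 1, and none of these comparisons involves A. Relative to its mean, Slc1a5 had an SD of 31.9% in E2 and 9.83% in A.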
